A study of Homo sapiens with 8 samples.

Results

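The THO and TREX mRNA export complex was followed at the RNA level in SK-N-BE(2) neuroblastoma cells with and without knockdown of METTL14, a subunit of the enzyme that writes N6-methyladenosine (m6A) on mRNA. Its members were taken by gene symbol from the deposited count table. They were the THO subunits THOC1, THOC2, THOC3, THOC5, THOC6 and THOC7 and their TREX partners ALYREF and DDX39B, 8 of the 56303 genes listed. The members were chosen by name. THOC7 was selected on its input and IP counts in the same libraries, seen in earlier results of these data. All member values are therefore given as descriptions, and no p-value is printed for them. Statements that a member was past a p-value threshold are likewise descriptions, to be read beside the share of all genes. SK-N-BE(2) is an established human neuroblastoma line. The cells carried a lentiviral pLKO.1 shRNA vector with either a control sequence (sh-NC) or a sequence against METTL14 (shMETTL14). Each arm had 2 cultures, and the study's methods list more than 1 METTL14 shRNA without saying which culture carried which, so the spread within shMETTL14 may hold a difference between shRNAs. Vector infection and cell line were shared by all groups. Polyadenylated RNA of every culture was fragmented, a small part was kept as input, and the rest was pulled down with an antibody against m6A (IP). This gave 8 libraries of 32027379 to 47205265 counts.

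THO is a nuclear assembly that joins RNA as it is transcribed and spliced, and together with the RNA helicase DDX39B (also called UAP56) and the adaptor ALYREF it forms TREX, the transcription and export complex. THOC2 is the scaffold of THO. THOC1 and THOC3 bind along it, and THOC5 and THOC7 pair with each other through long coiled coils on which THOC6 sits. DDX39B loads ALYREF onto spliced mRNA in an ATP-driven step, and ALYREF hands the mRNA to the export receptor NXF1–NXT1 for passage through the nuclear pore. The m6A-writing enzyme and the nuclear m6A reader YTHDC1 have both been linked to the recruitment of export factors.

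Promoter windows of the members are shown because ETS1 was one of the transcription factors the study examined around METTL14, and the letters CCGGAAG are the core that ETS factors bind. Windows of 250 bases before to 50 bases after the gene start were taken from RefSeq (GRCh38.p14) for 7 of the 8 members, THOC7 having no entry. CCGGAAG on either strand was found in 4 of these 7 windows, those of ALYREF, DDX39B, THOC3 and THOC5, and in 10.67% of 27305 windows of all genes. The sites nearest upstream of the start were as follows, 5′ to 3′ on the gene's strand, with the core in capitals, written CTTCCGG where it lay on the opposite strand.
ALYREF, chr17:81891605-81891634, minus strand: ctcacgcggcgCCGGAAGtgacgtgccggc
DDX39B, chr6:31541999-31542028, minus strand: gaagcctgcaaCCGGAAGtgaaggcagatt
THOC3, chr5:175968327-175968356, minus strand: atttgtagtccCTTCCGGggcggggtacag
THOC5, chr22:29553763-29553792, minus strand: tctacgcctcgCTTCCGGtcggccgcccct
The core began 36 bases before the start in ALYREF, 14 in DDX39B, 30 in THOC3 and 24 in THOC5. The windows of THOC1, THOC2 and THOC6 did not hold these letters. The GC box GGGCGG was in 6 of the 7 windows (all but that of DDX39B) and in 44.59% of all windows, and it overlapped the core in the printed stretch of THOC3. The CCAAT box was in those of ALYREF and THOC6 (35.7% of all windows), and the E-box CACGTG was in none of the 7 (7.435% of all windows). Such matches describe letters and not binding. The promoters that held the core belonged to genes with unlike input values. THOC5 was higher in shMETTL14, and ALYREF, DDX39B and THOC3 were not past the threshold.

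The METTL14 knockdown was visible in the table. METTL14 input levels were 49.5 and 48.8 CPM (counts scaled to the size of each library with TMM factors) in sh-NC and 13.7 and 14.6 CPM in shMETTL14, a log2 fold change of -1.79 ± 0.07 (SE, n = 2 and 2, edgeR adjusted p = 1.28e-15). All 8 neuroblastoma markers examined were above 1 CPM in every input library. Their summed levels were 5828 to 6060.3 CPM in sh-NC and 6131 to 6212 CPM in shMETTL14. The sum mostly follows MYCN, which had 4452 and 4224 CPM in sh-NC input. CHGA had 303 and 307 CPM in sh-NC input and 450 and 456 CPM in shMETTL14 input, and DBH 2.38 and 2.33 against 4.46 and 3.92 CPM. Input levels of MYCN and PHOX2A overlapped between the arms, and the other neuroblastoma markers were higher in shMETTL14. Of 7 markers of other cell types, EPCAM, COL1A1 and COL1A2 exceeded 1 CPM in every input, and the 7 summed to 91.1 to 97.1 CPM in sh-NC and 60.2 to 63.4 CPM in shMETTL14, while ALB stood at 0 in the inputs. The part of these marker shifts in the results below was not tested.

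THOC7 was the member that stood apart in the input libraries, which measure the RNA level. Its raw counts were 2371 and 2311 for the control cultures, against 1056 and 1021 for those with the knockdown. This corresponded to 66.3 and 64.1 CPM in sh-NC and to 24.9 and 24.4 CPM in shMETTL14. Both knockdown cultures therefore lay far below both controls, with group means of 65.2 ± 1.60 and 24.7 ± 0.34 CPM (SD, n = 2 each). The log2 fold change of THOC7 was -1.40 ± 0.06 (SE), a level 2.63-fold lower in shMETTL14, and it ran from -1.42 to -1.37 when each culture was left out in turn. Of 22245 genes tested, 123 had a larger fall in input, 80 of them past the threshold. In bulk RNA a smaller number of cells that make a transcript cannot be told apart from less of it in each cell.

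None of the other THO subunits fell with THOC7 in the input. THOC5, its coiled-coil partner, measured 193 and 187 CPM in sh-NC and 225 and 233 CPM in shMETTL14, and the scaffold THOC2 measured 161 and 157 CPM against 181 and 183 CPM. Both were higher in the 2 knockdown cultures than in either control, by 0.27 ± 0.04 for THOC5 and 0.20 ± 0.04 for THOC2 on the log2 scale. THOC1 had 30.1 and 25.0 CPM in sh-NC and 30.7 and 35.1 CPM in shMETTL14, a log2 fold change of 0.26 ± 0.08. Its highest control nearly touched its lowest knockdown culture. THOC3, a WD-repeat subunit, had 57.4 and 64.6 CPM in sh-NC and 59.3 and 59.0 CPM in shMETTL14, so the groups overlapped (-0.04 ± 0.05). THOC6, a second WD-repeat subunit and the least counted member, had 16.5 and 15.3 CPM in sh-NC and 17.4 and 17.0 CPM in shMETTL14 (0.12 ± 0.08).

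The TREX partners moved little. ALYREF measured 199 and 203 CPM in sh-NC and 188 and 193 CPM in shMETTL14, a log2 fold change of -0.07 ± 0.04, and DDX39B measured 229 and 223 CPM against 231 and 235 CPM, a log2 fold change of 0.05 ± 0.03. Neither difference was past the threshold, although the groups of either gene did not overlap.

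Calls were made at an adjusted p-value below 0.05 in edgeR's quasi-likelihood test. Of the 7 members other than THOC7, 3 were higher in the shMETTL14 inputs (THOC1, THOC2 and THOC5) and 0 were lower. Of all genes tested, 24% were called (11.7% higher and 12.3% lower). THOC7 is left out of this count, because it was selected on these same counts. The median log2 fold change was 0.08 over the 8 members, 0.20 over the 5 THO subunits without THOC7, and 0.00236 over all genes. In 7 of 8 members the 2 groups of input CPM did not overlap, against 58.4% of all genes tested. These 7 include THOC7, which was selected on these counts. With 2 cultures per arm an exact permutation test of a single gene cannot go below p = 0.333. THOC1 was not past the threshold without sh-NC culture 2 (log2 fold change 0.13) or without shMETTL14 culture 2 (0.16), nor with the filter on low counts removed, and THOC2 was not without shMETTL14 culture 2 (0.19). The call of THOC5 was kept whichever culture was left out.

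**Figure D1:**
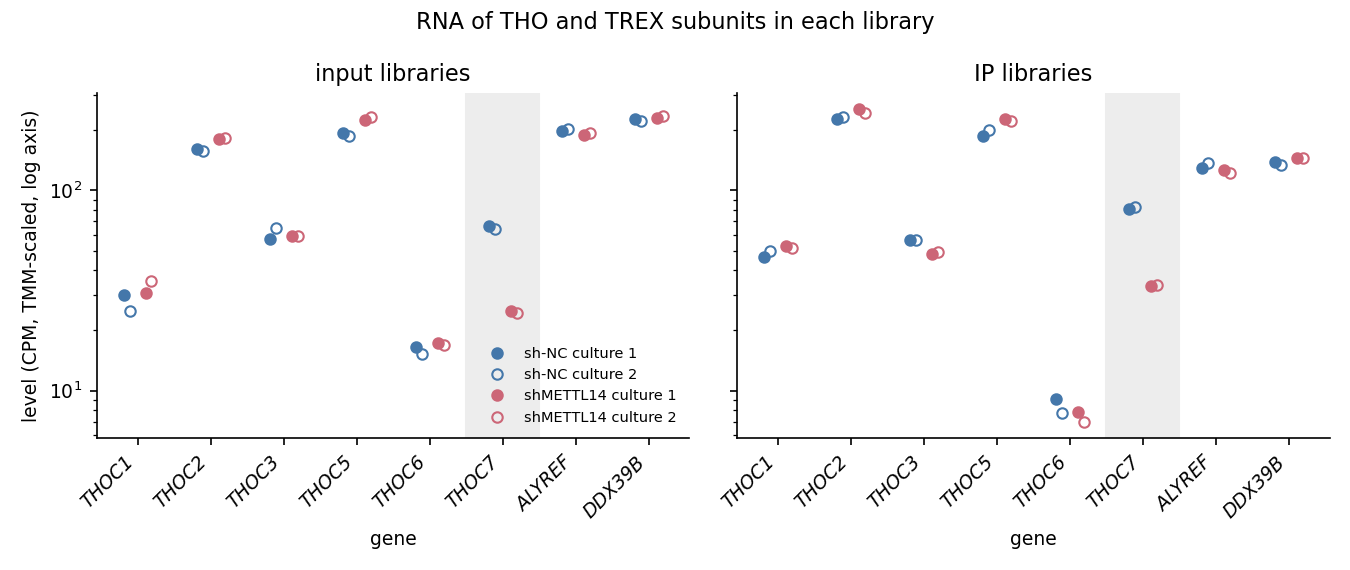
Level of each member in CPM (log axis) in the input and IP libraries of sh-NC and shMETTL14, 1 point per library (filled for culture 1, open for culture 2). THOC7 input falls from 66.3 and 64.1 to 24.9 and 24.4 CPM and THOC7 IP from 80.9 and 83.1 to 33.2 and 33.7 CPM, while the arms of the other members lie close together.

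THOC7 stood apart in the IP libraries too. These values mix the RNA level with the share pulled down by the m6A antibody. THOC7 had IP counts of 3679 and 2529 in sh-NC against 1022 and 1144 in shMETTL14, or 80.9 and 83.1 CPM against 33.2 and 33.7 CPM. The log2 fold change was -1.29 ± 0.05, a level 2.45-fold lower, with -1.32 to -1.27 when each culture was left out. THOC5 stood at 186 and 201 CPM in sh-NC and 228 and 222 CPM in shMETTL14 (0.22 ± 0.04), and THOC2 at 226 and 233 CPM against 255 and 243 CPM (0.11 ± 0.04). THOC3 was lower in the knockdown IPs, with 56.6 and 56.7 CPM against 48.3 and 49.4 CPM (-0.21 ± 0.05). In its inputs the groups had overlapped.

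THOC1 measured 46.6 and 49.6 CPM in the sh-NC IPs and 52.8 and 51.4 CPM in the shMETTL14 IPs, a log2 fold change of 0.12 ± 0.05. The THOC6 IPs were overlapping, at 9.12 and 7.75 CPM against 7.82 and 6.96 CPM (-0.21 ± 0.12). ALYREF had 129 and 137 CPM against 126 and 122 CPM (-0.10 ± 0.04). DDX39B had 138 and 134 CPM against 145 in both knockdown cultures (0.09 ± 0.04). None of these 4 was past the threshold. Of the 7 members other than THOC7, THOC2 and THOC5 were called higher and THOC3 lower, beside 23% of 21196 genes called (10.4% higher and 12.6% lower). THOC7 is again left out, because it was selected on its IP counts too. The CPM of the groups did not overlap in 7 of 8 members, the selected THOC7 among them, against 57.7% of all genes tested. The call of THOC2 was lost without sh-NC culture 1 and without either shMETTL14 culture, with the culture number as a block (adjusted p-value not below 0.05) and in DESeq2. Those of THOC3 and THOC5 were lost without shMETTL14 culture 1, and ALYREF was past the threshold without sh-NC culture 1.

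**Figure D2:**
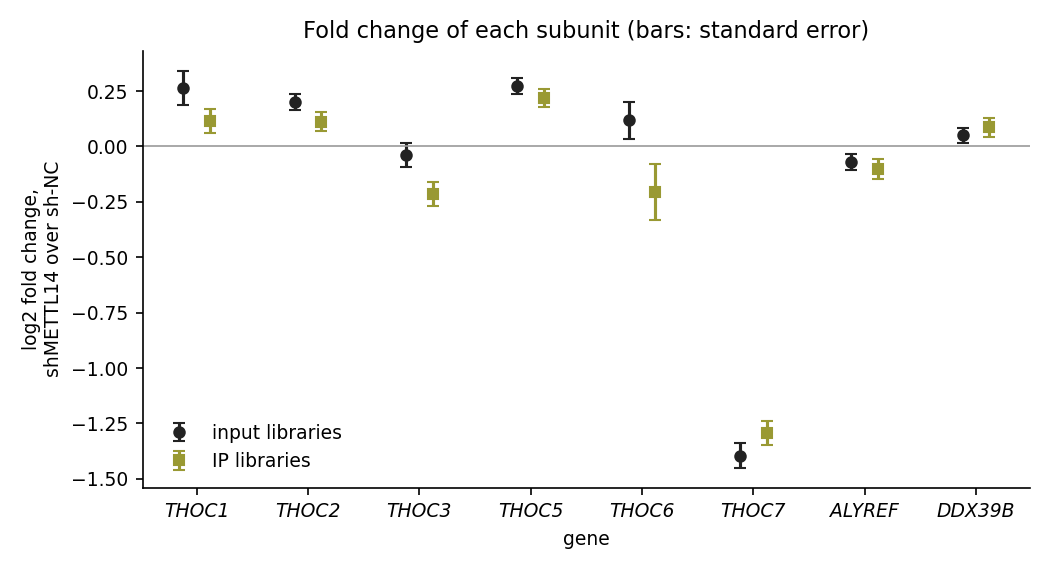
Log2 fold change of shMETTL14 over sh-NC for each member in the input and in the IP libraries, with bars of 1 SE from the edgeR fit. THOC7 lies at -1.40 in input and -1.29 in IP, and the other 7 members lie between -0.21 and 0.27.

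THOC7 can be set against the median of the other 7 members directly. In the input, its log2 difference between the arms was -1.40 and the median of the others 0.11, a gap of -1.51 that ran from -1.54 to -1.48 when single cultures were left out. In the IP libraries the gap was -1.38, and it ran from -1.39 to -1.34. Relative to the rest of the complex the RNA of THOC7 was therefore 2.85-fold lower in the input and 2.60-fold lower in the IP.

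Levels of different genes were compared only per kilobase of the gene length listed in the table, as CPM per kilobase. In sh-NC input, ALYREF was the most abundant member at 128 ± 1.70, followed by THOC7 at 36.5 ± 0.90, DDX39B at 32.2 ± 0.60, THOC5 at 24.2 ± 0.55, THOC3 at 17.7 ± 1.48, THOC2 at 15.5 ± 0.27, THOC6 at 8.55 ± 0.46 and THOC1 at 3.40 ± 0.44 (SD, n = 2). In shMETTL14 input THOC7 had moved to the sixth place at 13.8 ± 0.19, below THOC3 at 17.1 ± 0.06 and above THOC6 at 9.23 ± 0.16. The remaining levels were 121 ± 2.03 for ALYREF, 33.2 ± 0.40 for DDX39B, 29.1 ± 0.67 for THOC5, 17.8 ± 0.14 for THOC2 and 4.06 ± 0.39 for THOC1. Neighbours in the order did not overlap between cultures in either arm, though THOC2 and THOC3 were close in both and exchanged places. The listed length merges the exons of all transcripts of a gene, so a gene with long rarely used exons, or a gene mainly read from a short isoform, is placed too low.

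Within THO itself the composition of the RNA shifted. Of the summed per-kilobase input level of the 6 THO subunits, THOC7 held 34.5% ± 0.48 in sh-NC and 15.2% ± 0.34 in shMETTL14 (SD, n = 2). THOC5 held 22.8% ± 0.27 and 31.9% ± 0.46, and became the subunit with the highest share. The shares of THOC2 were 14.7% and 19.5%, those of THOC3 16.7% and 18.8%, those of THOC6 8.08% and 10.1%, and those of THOC1 3.21% and 4.46%. A fall in one subunit raises the shares of the others by construction. In the IP libraries THOC7 held 38.4% ± 0.04 in sh-NC and 19.5% ± 0.50 in shMETTL14.

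**Figure D3:**
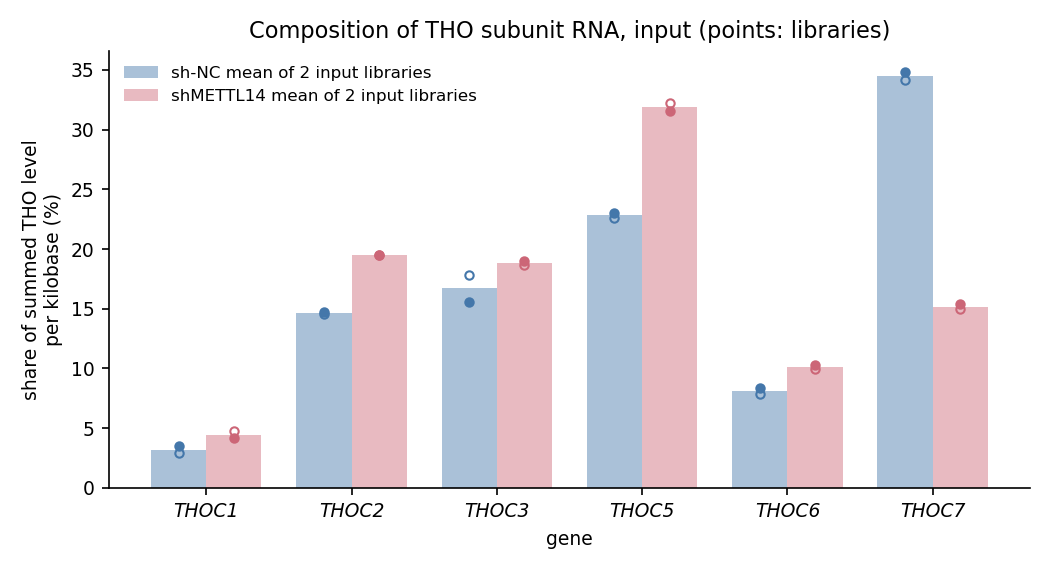
Share of each THO subunit in the summed input CPM per kilobase of the 6 subunits, in percent. Bars are the means of 2 libraries and points are the libraries (filled for culture 1, open for culture 2). THOC7 goes from 34.5% in sh-NC to 15.2% in shMETTL14 and THOC5 from 22.8% to 31.9%.

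The ratio of IP to input CPM, taken within each culture, describes how much of a gene's RNA the m6A antibody pulled down relative to other genes. The listed gene length, as a divisor, cancels in it. The RNA was fragmented before the pull-down, so the ratio is an average over all fragments of a gene. Where along a gene the pulled-down fragments lay, and how this differed between short and long genes, was not tested. In sh-NC THOC1, THOC2 and THOC7 had ratios above 1 in both cultures, THOC3 and THOC5 ratios near 1, and THOC6, ALYREF and DDX39B ratios well below 1. THOC1 was highest with 1.55 and 1.99, followed by THOC2 with 1.40 and 1.48 and by THOC7 with 1.22 and 1.30. THOC5 had 0.963 and 1.07 and THOC3 0.987 and 0.877, and these neighbours overlapped. ALYREF had 0.647 and 0.675, DDX39B 0.605 and 0.601, and THOC6 was lowest with 0.553 and 0.507.

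In shMETTL14 the order was nearly the same. THOC1 had ratios of 1.72 and 1.46, THOC2 of 1.40 and 1.32 and THOC7 of 1.33 and 1.38, the latter pair overlapping. THOC5 stood at 1.01 and 0.956, THOC3 at 0.814 and 0.837, ALYREF at 0.669 and 0.632, DDX39B at 0.628 and 0.616 and THOC6 at 0.450 and 0.410. On the log2 scale of the 8-library model, IP over input in sh-NC was 0.80 ± 0.07 for THOC1, 0.53 ± 0.04 for THOC2 and 0.33 ± 0.05 for THOC7, against -0.60 ± 0.04 for ALYREF, -0.73 ± 0.04 for DDX39B and -0.90 ± 0.10 for THOC6. In shMETTL14 it was 0.66 ± 0.07 for THOC1, 0.45 ± 0.04 for THOC2, 0.44 ± 0.06 for THOC7, -0.62 ± 0.04 for ALYREF, -0.68 ± 0.04 for DDX39B and -1.22 ± 0.10 for THOC6.

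Of the 7 members other than THOC7, 2 were called higher in IP in sh-NC (THOC1 and THOC2) and 3 lower (THOC6, ALYREF and DDX39B). Of 22953 genes, 58.9% were called (29.1% higher and 29.8% lower). THOC7 is left out of these counts, because it was selected on its input and IP counts. In shMETTL14 THOC3 was also called lower (-0.28 ± 0.05), which made 2 higher and 4 lower of these 7, beside 58% of genes (28.9% higher and 29.1% lower). The zero of IP over input is set by the scaling. With library size as the only scaling, the median of all genes moved from -0.01 to -0.14 for sh-NC, and for shMETTL14 from -0.01 to -0.13. The calls then split into 5358 higher and 8250 lower in sh-NC, in place of 6689 and 6833, and into 5322 and 8080 in shMETTL14, in place of 6633 and 6673. Under that scaling THOC7 stood at 0.20 in sh-NC and 0.32 in shMETTL14, THOC5 changed sign in sh-NC (-0.11 in place of 0.02 ± 0.04), and THOC3 and THOC5 joined the members called lower there. In shMETTL14 THOC5 was called lower under it as well (-0.15). THOC3 was also called lower in sh-NC under the filter of 10 counts per library (-0.13) and without sh-NC culture 1 (-0.18), while THOC5 without sh-NC culture 1 was called higher (0.11).

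**Figure D4:**
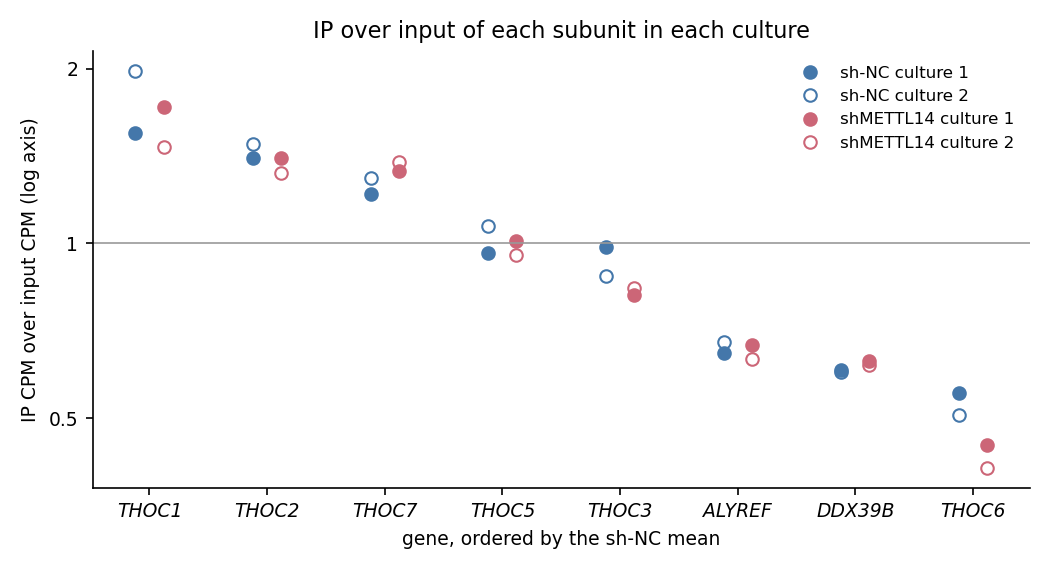
Ratio of IP to input CPM of each member in each culture (log axis), sh-NC and shMETTL14 side by side. THOC1, THOC2 and THOC7 lie above 1 in all 4 cultures and THOC6, ALYREF and DDX39B below 1 in all 4. The arms of THOC1, THOC2, THOC5 and ALYREF overlap. Without overlap, THOC7 and DDX39B are higher in shMETTL14 and THOC3 and THOC6 lower.

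Whether the knockdown changed IP over input was read from the interaction of arm and library type. THOC7 had ratios of 1.26 ± 0.05 in sh-NC and 1.36 ± 0.03 in shMETTL14 (SD, n = 2), and the change on the log2 scale was 0.11 ± 0.08 (SE). The drop of THOC7 in the IP libraries thus had nearly the size of its drop in the input. The changes of the other members were -0.14 ± 0.09 for THOC1, -0.08 ± 0.06 for THOC2, -0.17 ± 0.08 for THOC3, -0.05 ± 0.06 for THOC5, -0.32 ± 0.15 for THOC6, -0.02 ± 0.06 for ALYREF and 0.04 ± 0.06 for DDX39B. By edgeR and by DESeq2, 0 of 8 members were past the threshold, and in edgeR 0.00436% of genes were, a single gene. At an unadjusted p-value below 0.05 the members were THOC3 and THOC6, beside 6.34% of all genes. These intervals do not show that IP over input was the same in both arms. The scaling of the libraries also sets the median change of all genes near 0 (-0.00135). A fall of m6A shared by most transcripts could therefore not be seen in this comparison. The study itself measured a significant reduction of m6A in these cells after METTL14 knockdown, by a separate assay.

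Per culture, log2 IP over input of THOC7 was 0.29 and 0.37 in sh-NC against 0.41 and 0.46 in shMETTL14, while the median of the other 7 members was -0.05 and -0.19 in sh-NC against -0.30 and -0.26 in shMETTL14. THOC7 lay above the median of the others in all 4 cultures, by 0.34 and 0.56 in sh-NC and by 0.71 in one and 0.72 in the other shMETTL14 culture. A different measure takes the change of each gene between the arms first, from the culture means. It was 0.11 for THOC7 and -0.08 for the median of the other 7 members, a difference of 0.19. This difference ran from 0.11 to 0.26 when single cultures were left out. The spread of the per-culture gap within the arms, combined over both, was an SD of 0.16. Of the 8 members, 6 had a change below 0, and the median change was -0.06 over the members and -0.00135 over all genes.

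The members differ in gene structure, which the choice of genes did not use. All coordinates are GRCh38, as in the count table. THOC7 lies on the minus strand of chr3:63833870-63863903 with 1784 exonic bases in 10 merged exon blocks, the longest of 400 bases. ALYREF (chr17:81887844-81891586, 1574 exonic bases) and THOC6 (chr16:3024027-3027755, 1860 exonic bases) are about as short, each with 8 blocks. THOC2 (chrX:123600561-123733056) is the largest, with 10277 exonic bases in 38 blocks and a last block of 3188 bases. THOC5 (chr22:29505879-29555216) has 7878 bases in 25 blocks and a last block of 2642 bases.

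THOC1 (chr18:214520-268050) has 8102 bases in 19 blocks, DDX39B (chr6:31530219-31542448) 7007 bases in 9 blocks, and THOC3 (chr5:175917873-176034680) 3453 bases in 12 blocks. Over the 8 genes the Spearman correlation of IP over input in sh-NC was 0.79 with the number of merged exon blocks, 0.57 with the exonic length, 0.55 with the length of the last block and 0.29 with the longest block. These are descriptions over 8 points that share the same libraries. THOC7 had the third highest IP over input with the second lowest exonic length.

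Exons of THOC7 shared no base with another listed gene. Other members did share bases. THOC6 shared 260 exonic bases (14.0%) with HCFC1R1 on the opposite strand, which had up to 210% of the counts of THOC6 and a log2 fold change of 0.50 ± 0.09 in input (edgeR adjusted p = 1.24e-04), and the values of THOC6 are uncertain for that reason. DDX39B shared 2079 bases (29.7%) with the readthrough gene ATP6V1G2-DDX39B on the same strand. The readthrough gene had up to 80.1% of the counts of DDX39B and an input difference of 0.12 ± 0.04. The per-kilobase level of DDX39B, and its place next to THOC7, are uncertain for that reason. DDX39A is a close paralogue of DDX39B, and how reads common to both were assigned is not given in the sources used here. THOC5 shared 158 bases with NIPSNAP1 on the same strand, which had up to 110% of the counts of THOC5 and an input difference of 0.26 ± 0.04 (edgeR adjusted p = 1.96e-05), beside the 0.27 of THOC5. THOC1 shared 110 bases with USP14 on the opposite strand, which had up to 165% of its counts and an input difference of -0.19 ± 0.06. How far shared reads entered these members' values was not tested. ALYREF shared 62 bases with ANAPC11, and THOC2 610 with the low-count gene FERP1, at most 1.94% of its counts. THOC3 overlapped only OR1X1P, which had 0 counts. The listed span of THOC3, 116808 bases, reaches past the RefSeq gene (chr5:175959531-175968315) on both sides. How far exons outside that gene entered its counts and its per-kilobase level was not tested.

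The genes whose profile over the 8 libraries was most like that of THOC7 were not members of the complex. Likeness was measured as the root mean square distance between log2 CPM values, each gene centred on its own mean, over all 22953 genes tested. The nearest were VIP at 0.03, DEPDC1 at 0.08, CFL2 at 0.10, COL6A3 at 0.11 and DEPDC1B at 0.14, where the median gene lay at 0.77. VIP encodes vasoactive intestinal peptide, CFL2 a cofilin that severs actin filaments and COL6A3 a chain of type VI collagen. VIP had 111 and 108 CPM in sh-NC input and 44.0 and 42.8 CPM in shMETTL14 input, a log2 fold change of -1.32 that lies beside the -1.40 of THOC7, with an IP over input of 0.36 in sh-NC beside 0.33. The input fold changes of the other 4 were -1.46 for DEPDC1, -1.30 for CFL2, -1.15 for COL6A3 and -1.18 for DEPDC1B. The nearest member was THOC3 at a distance of 0.68, rank 5649. These 5 genes were selected for the likeness, so their values carry no test.

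**Figure D5:**
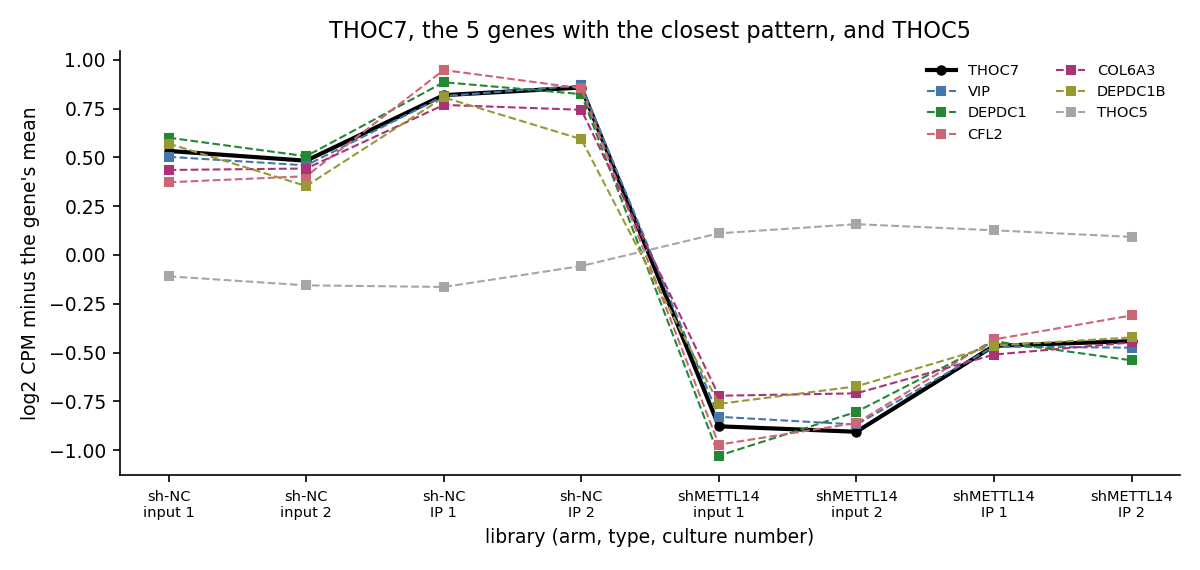
Log2 CPM of THOC7, of the 5 genes most like it and of its partner THOC5 in the 8 libraries, each gene centred on its own mean. The 5 genes follow THOC7 down in shMETTL14 input and IP at distances of 0.03 to 0.14, and THOC5 runs the other way.

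Beyond THO and its partners, the mRNA export pathway showed small differences in both directions. Of 41 other export genes listed, 40 were tested, METTL14 aside. In input, 11 were higher, 6 were lower and 23 were not past the threshold, where 11.7% of all genes were higher and 12.3% lower, with a median log2 fold change of 0.01, beside 0.00236 over all genes. The largest called difference of this pathway was the fall of NUP153, a protein of the nuclear basket of the pore, by 0.50 ± 0.05 on the log2 scale (edgeR adjusted p = 3.12e-08). It was the one called gene among 8 on the pore side. Its fall was smaller in size than that of THOC7.

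Among the other TREX-associated factors, SARNP, a small RNA-binding TREX component, was higher by 0.30 ± 0.04 (edgeR adjusted p = 9.15e-06) and 2 of 10 in all were higher and 3 lower. In TREX-2, which couples transcription to the pore, 4 of 6 were higher and none lower, led by the centrin CETN3 at 0.33 ± 0.07 (edgeR adjusted p = 0.00158). The calls of CETN3 and ENY2 were lost without shMETTL14 culture 2 (0.30 and 0.10), and that of ENY2 also with no filter on low counts. In the exon junction complex, which marks spliced mRNA, 2 of 5 were higher, led by MAGOH at 0.37 ± 0.06 (edgeR adjusted p = 5.99e-05), a call lost without shMETTL14 culture 2 (0.30) and with no filter. Of the SR protein adaptors, SRSF7 at -0.19 ± 0.04 (edgeR adjusted p = 3.09e-04) and SRSF3 were lower and SRSF1 was higher. None of these 3 calls was kept without shMETTL14 culture 2 (-0.20, -0.12 and 0.10). SRSF1 and SRSF3 were also not past the threshold without sh-NC culture 1 or shMETTL14 culture 1, nor SRSF3 with no filter. A fit without a culture has 1 culture in that arm and called fewer genes over the whole table, so a call lost there need not be particular to the gene. These lists are short, and their counts stand beside the same 11.7% and 12.3% of all genes.

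The export receptor genes NXF1, NXT1 and NXT2, to which ALYREF delivers mRNA, held 0 called genes of 3 in input, 0 also at an unadjusted p-value below 0.05, and DESeq2 called neither NXT1 nor NXT2. Among the genes that link m6A to export, VIRMA, a large subunit of the m6A writer complex, was higher by 0.25 ± 0.04 (edgeR adjusted p = 2.30e-05), YTHDC1 was higher too, and METTL14 was lower.

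In IP over input in sh-NC, 20 of the 40 were higher and 14 lower, beside 29.1% and 29.8% of all genes. ZC3H13, another writer complex subunit, was highest at 1.02 ± 0.04, and ERH, a small protein of the TREX-associated list, lowest at -1.05 ± 0.07. Within groups, the extremes were ENY2 at 0.91 and PCID2 at -0.63 in TREX-2, CASC3 at 0.53 and EIF4A3 at -0.46 in the exon junction complex, TPR at 0.53 and RAE1 at -0.80 on the pore side, and NXT1 at 0.51 and NXT2 at -0.66 in the receptor, NXT1 falling to 0.22 and losing its call without sh-NC culture 1. NXT2 was not past the threshold with the replicate block, in DESeq2, with no filter or without either sh-NC culture. The SR protein genes were all below 0, from -0.43 for SRSF1 to -0.84 for SRSF3, as ALYREF and DDX39B were. In the change of IP over input 0 of 40 passed in edgeR or in DESeq2, 3 in edgeR at an unadjusted p-value below 0.05.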

How the data were processed

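m6A pull-down sequencing (MeRIP-seq) covered SK-N-BE(2) cells of the sh-NC and shMETTL14 arms, 2 cultures per arm, each giving 1 IP and 1 input library. Groups were taken from the sample titles, each of which matched 1 column. The authors deposited raw counts of reads per gene for 56303 genes, 16597 of them without a count. Their processing notes name Trimmomatic 0.36 and GRCh38, and the kit adds unique molecular identifiers. The aligner, the use of strand in counting, the counting tool and the handling of identifiers are not given in the sources used here. Without removal of duplicates, reads and molecules are not the same. Nothing says whether the cultures of an arm were infected separately, and p-values measure only the spread between these samples. Replicate libraries differed by more than sampling noise (chi-square per gene of 2.43 to 4.00).

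Tests were run with edgeR 4.0.16 under R 4.3.3 (filterByExpr, TMM factors, glmQLFit and glmQLFTest, Benjamini-Hochberg adjustment over all genes tested, threshold 0.05). The input fit used the 4 input libraries (22245 genes), the IP fit the 4 IP libraries (21196 genes), and IP over input and its change 1 model of 8 libraries with 4 group means (22953 genes). SEs were derived from the log2 fold change and the F statistic (size over root of F). Log2 CPM values had a prior count of 2. The protocol pairs IP with input, both made from 1 RNA per culture, and the correlation of their departures from group means was 0.004 for sh-NC and 5.70e-05 for shMETTL14.

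The members and the lists of export genes and markers were chosen with earlier results of these data known. The genes named are the members, METTL14, genes whose exons overlap a member, per export list the called gene with the largest input difference and those with the highest and lowest IP over input in sh-NC, and the 5 genes most like THOC7. MCCD1, SNORD84, BICDL2 and DDX39B-AS1 also overlap members and are not described further. SRSF1, SRSF3 and YTHDC1 were named after their values were seen, as members of small counts. Of the 50 genes listed, 48 matched by symbol and 2 by an older symbol (SEM1 and VIRMA). Alternatives were leaving out each culture, a replicate block, a prior count of 0.5, DESeq2 1.42.0, scaling by library size or by RLE factors, and filters of 1 read in all or of 10 counts per library.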

Additional observations from a re-analysis of the deposited data

How the results depend on the processing

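The log2 fold change of THOC7 lay between -1.42 and -1.37 in input and between -1.32 and -1.27 in IP over all alternatives run, as a description. Each arm had 2 cultures, with a lone culture assumed to vary like the others when 1 was left out. Without the filter on low counts, 1082 genes were higher and 1072 lower in input. In the IP libraries DESeq2 called 1330 higher and 1719 lower and 1 member higher, as did the replicate block (THOC2 lost). The block otherwise changed SRSF3 in IP and NXT2 in sh-NC IP over input, with 5593, 4961, 13261, 13060 and 1 genes called in input, IP, IP over input in sh-NC and shMETTL14, and its change. Culture numbers shared between arms did not pair the samples (correlation of deviations -0.012 in input and -0.012 in IP). Scaling by library size alone gave 5 members lower in sh-NC IP over input, with THOC5 at -0.11 and METTL3 at -0.0615, both reversed, and 10 counts in every library gave -0.00567 for THOC5. For the change of IP over input no filter gave 1 gene higher and 12 lower, DESeq2 0 lower, RLE factors 2 and 10 counts 3. Per-kilobase input levels under library size alone, in sh-NC and shMETTL14, were 16.1 and 18.6 for THOC2, 25.1 and 30.5 for THOC5, 37.98 and 14.5 for THOC7, 133 and 127 for ALYREF and 33.5 and 34.8 for DDX39B, with 18.0 for THOC3 and 9.69 for THOC6 in shMETTL14. The causes were not tested.

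Leaving out each culture in turn gave 656 to 2366 genes higher and 925 to 2590 lower in input with 1 to 3 members higher, and 1132 to 2091 higher and 1634 to 2373 lower in IP with 0 to 2 members higher and 1 to 3 lower. THOC7 minus the median of the others ran from -1.54 to -1.48 in input, -1.39 to -1.34 in IP, 0.34 to 0.56 for IP over input of sh-NC and 0.11 to 0.26 for the change. For THOC5 the IP over input of sh-NC lay between -0.0495 and 0.11 and that of shMETTL14 between -0.0620 and 0.0193. Its change with the knockdown lay between -0.14 and 0.0288, that of ALYREF between -0.0731 and 0.0171, that of METTL14 between -0.0026 and 0.19 and that of THOC1 between -0.35 and 0.0300, with 0 to 9 genes higher and 0 to 116 lower. In input the sign was not settled for CASC3 (-0.0244 to 0.0604), DDX39B-AS1 (-0.49 to 0.23), EIF4A3 (-0.0167 to 0.0663), FERP1 (-0.30 to 0.43), METTL3 (-0.0067 to 0.0236), NXT1 (-0.11 to 0.205), RAE1 (-0.16 to 0.0278), THOC3 (-0.122 to 0.0491) and TPR (-0.0226 to 0.0320).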
